A study of Mus musculus with 2 samples.

Results

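The genes described here are 10 structural genes of cartilage matrix, measured in limbs taken from mouse embryos on embryonic day 11.5. They were listed by symbol, with earlier results of these data known: the collagen genes Col2a1, Col9a1, Col9a2, Col9a3, Col11a1 and Col11a2, the proteoglycan gene Acan, the link protein gene Hapln1 and the matrilin genes Matn1 and Matn4. All 10 were matched among the 43346 genes of each deposited gene table, and their isoforms came from the transcript tables. Total RNA-seq was made from 2 pools of limbs of the strain labelled B6NCrl, with 109 embryos in the pool of replicate 1 and 88 in that of replicate 2, both of mixed sex, healthy and with no treatment or mutation named. Each library was made from 10 ng of RNA. The labels name 1 group and no contrast, and they do not say whether fore- and hindlimbs were pooled or what share of the tissue was chondrogenic.

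Cartilage of the limb begins as condensations of mesenchyme in which the transcription factor Sox9, together with Sox5 and Sox6, turns on a set of matrix genes. Collagen II, a trimer of 3 identical chains made by Col2a1, is the main fibril of cartilage. Collagen XI sits in the core of that fibril and collagen IX on its surface. Aggrecan, a large chondroitin sulfate proteoglycan, is held on hyaluronan by link protein, and matrilins are adaptor proteins that tie fibrils and proteoglycans together. In a bulk sample such as this, fewer cells of a type and less RNA per cell cannot be told apart.

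The gene tables held 40.65 M estimated counts on genes for replicate 1, against 32.3 M for replicate 2, and spike-in RNAs took 5.37% and 7.92% of all counts. The limb label was checked on its defining genes: all 6 limb markers, among them Msx1 at 174 ± 1.41 TPM and Prrx1 at 149 ± 3.49 TPM, reached 1 TPM in both libraries. Of all protein-coding genes 56.3% did so. TPM is a level per transcript length, scaled to the same total in each table, spike-ins included. Spike-ins held 11.8% of TPM in replicate 1 and 17.2% in replicate 2, which lowers gene TPM in replicate 2 relative to replicate 1. This offset enters each SD of TPM given below. Unless said otherwise, a level is the mean TPM ± SD over both libraries (n = 2). The labels call the libraries biological replicates and give each its own pool of embryos, under the same donor entry, and with 2 of them an SD is itself imprecise.

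The 10 genes spanned a 314-fold range of levels, and Col2a1 alone made up most of their RNA. Their levels summed to 339.0 TPM in replicate 1 and 322.8 TPM in replicate 2, of which Col2a1 held 55.8% and 56.1%. Spike-ins do not enter the gene counts, of which the 10 genes took 0.0920% and 0.0934%. The lower TPM sum of replicate 2 was not seen there. Of the 10, 9 reached 1 TPM in both libraries, against 56.3% of the 21474 protein-coding genes, and only Acan did not. Their median level was 13.0 TPM, and that of all protein-coding genes was 3.02 TPM.

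**Figure D1:**
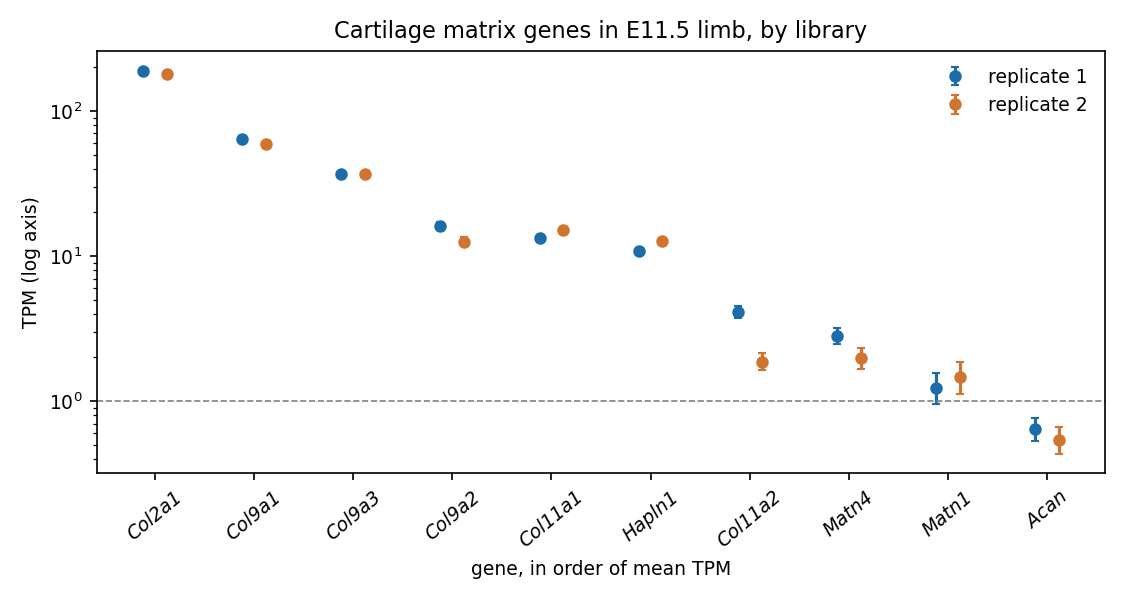
Level of each cartilage matrix gene in TPM on a log axis, 1 point per library, with genes in order of their mean; bars are exact 95% Poisson intervals of the counts, and the dashed line marks 1 TPM. Col2a1 lies highest at 189 and 181 TPM and Acan lowest at 0.640 and 0.540 TPM, and the libraries are farthest apart for Col11a2.

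Col2a1 (ENSMUSG00000022483, GRCm38 chromosome 15, 97975602 to 98004695, minus strand) encodes the only chain of collagen II. It stood at 189 TPM in replicate 1 and 181 TPM in replicate 2 (185 ± 5.76), from 23789 and 19288 counts. These levels lay above 96.5% and 96.6% of protein-coding genes. Both pools were thus close, and the level was near that of its regulator Sox9 (162 ± 11.1): the ratio of Sox9 to Col2a1 was 0.899 in replicate 1 and 0.853 in replicate 2. The fibrillar collagen genes of general connective tissue were of the same order. Col1a2 had 1.03 and 1.10 times the level of Col2a1, which did not exceed the spread between pools, while Col3a1 had 1.80 and 2.005 times and Col1a1 had 0.372 and 0.418 times its level.

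Col2a1 has a classical splice switch, in which chondroprogenitors keep exon 2 (form IIA) and mature chondrocytes skip it (form IIB). Exon 2 encodes a cysteine-rich domain of the amino-terminal propeptide. In the annotation, 1 full coding transcript holds this exon and the other lacks it, with 1487 and 1419 codons. The exon that tells the coding parts of the forms apart is printed here 5′ to 3′ from the GENCODE M21 transcript. It is exon 2 of 54 (GRCm38 chr15:98000403-98000606, minus strand), with its in-frame cysteine codons in capitals.
Col2a1 exon 2: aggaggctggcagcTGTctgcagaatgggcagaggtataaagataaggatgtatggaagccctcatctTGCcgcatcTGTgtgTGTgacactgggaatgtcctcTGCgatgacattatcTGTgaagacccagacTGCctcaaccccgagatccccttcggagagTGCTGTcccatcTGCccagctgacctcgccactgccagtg
The exon is 204 nt long, a multiple of 3, and 10 of its 67 full codons are for cysteine.

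Most Col2a1 coding RNA was assigned to the form with this exon, though the form without it was present in both pools. The form with exon 2 stood at 122 TPM in replicate 1 (deposited bounds 112.2 to 126.0) and 114 TPM in replicate 2 (104.7 to 118.7). The form without it stood at 46.9 TPM (39.4 to 53.3) and 51.0 TPM (42.8 to 57.1). The bounds of both forms did not overlap in either library. Of the RNA of the pair, the exon 2 form held 72.2% and 69.2%, a mean of 70.7% ± 2.14 (SD, n = 2). The transcripts, of 5104 and 4862 nt, also differ outside exon 2, so this split does not rest on that exon alone. A further 9.66% ± 1.53 of the gene's TPM was given to transcripts not annotated as coding. The largest of these, a retained-intron model of 613 nt, held 6.61% and 5.35%. Reads of these libraries were of total RNA, so unspliced RNA may be counted in such models, which was not tested.

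The 3 genes of collagen IX stood at unequal levels, in the order Col9a1, Col9a3, Col9a2 in both libraries. Collagen IX is a trimer of 1 chain from each of them. Col9a1 (ENSMUSG00000026147, chromosome 1, 24177610 to 24252684) was at 64.0 TPM in replicate 1 and 58.9 TPM in replicate 2 (61.4 ± 3.58), from 5312 and 4052 counts. Col9a3 (ENSMUSG00000027570, chromosome 2, 180597790 to 180622189) was at 36.8 and 36.7 TPM (36.8 ± 0.0495), from 2592 and 2013 counts. Col9a2 (ENSMUSG00000028626, chromosome 4, 121039385 to 121055322) was at 16.1 and 12.6 TPM (14.4 ± 2.49), from 1163 and 707 counts. The libraries did not overlap between any pair of the 3 genes.

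Set against each other within a library, Col9a3 had 0.575 and 0.624 times the level of Col9a1, a mean log2 ratio of -0.74 ± 0.0821. Col9a2 had 0.252 and 0.214 times the level of Col9a1, a mean log2 ratio of -2.11 ± 0.167. To judge such ratios, a limit was set from the log2 ratios between the pools among genes at the level of the lower gene. It was the 95th percentile of their size, 0.300 for Col9a3 and 0.421 for Col9a2. The limit covers the spread of the same gene between pools, and not a bias that a gene carries in both pools alike. Both ratios passed that limit, as did that of Col9a2 to Col9a3 (-1.37 ± 0.250). These are RNA levels, and part of each lies in short models not annotated as coding: 12.04% and 19.2% for Col9a2 and 13.3% and 20.8% for Col9a3, but 0.750% and 1.26% for Col9a1. For Col9a2 the largest such model, of 752 nt, held 12.04% and 16.4%. For Col9a3 a retained-intron model of 749 nt held 3.42% and 14.3% and another of 644 nt held 5.20% and 2.33%. Over coding transcripts alone the order was the same, with 60.8 TPM for Col9a1, 30.5 TPM for Col9a3 and 12.2 TPM for Col9a2.

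Nearly all coding RNA of Col9a1 was assigned to its short form. The gene has a pair of start sites. From the upstream one comes a long form whose extra exons encode the globular NC4 domain, known as the form of hyaline cartilage. From the downstream one comes a short form without that domain, known from the developing eye but not taken here as particular to it. The long form, with 921 codons, has 7 exons of its own (1046 nt), and the short form, with 680 codons, has 1 (271 nt). The short form stood at 63.1 TPM in replicate 1 (deposited bounds 60.1 to 63.5) and 57.6 TPM in replicate 2 (54.4 to 57.9). The long form stood at 0.390 TPM (0.206 to 0.638) and 0.560 TPM (0.308 to 0.892), from 41.0 and 48.6 counts. The long form thus held 0.614% and 0.963% of both, a mean of 0.788% ± 0.246 (SD, n = 2), although its own exons were the longer stretch.

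**Figure D2:**
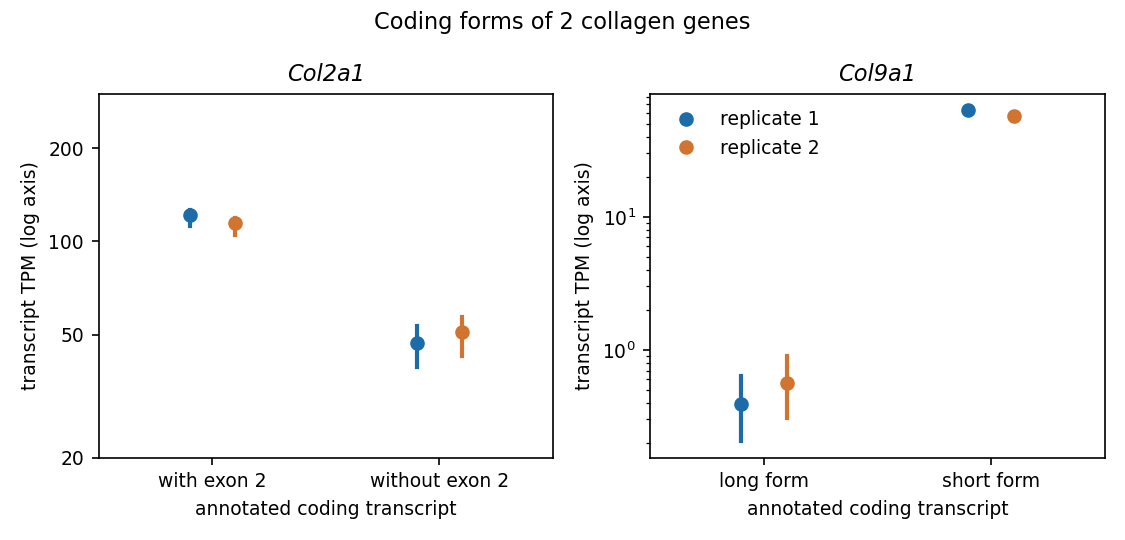
TPM on a log axis of both coding transcripts of Col2a1 (left) and of Col9a1 (right), 1 point per library with the deposited bounds as lines. For Col2a1 the form with exon 2 is the higher in each library, and for Col9a1 the short form at 63.1 and 57.6 TPM stands far above the long form at 0.390 and 0.560 TPM.

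As the results turn on which start of Col9a1 was used, the bases just before each annotated start are shown, from the RefSeq promoter table (GRCm38.p6, plus strand), trimmed to end 1 base before the GENCODE exon. The first is chr1:24177360-24177609 and the second chr1:24194953-24195186, and the starts lie 17577 nt apart.
Col9a1 long form: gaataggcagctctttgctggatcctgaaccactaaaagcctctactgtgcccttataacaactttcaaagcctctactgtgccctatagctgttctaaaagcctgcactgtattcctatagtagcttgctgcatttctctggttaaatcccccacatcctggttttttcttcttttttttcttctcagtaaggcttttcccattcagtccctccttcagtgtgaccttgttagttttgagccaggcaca
Col9a1 short form: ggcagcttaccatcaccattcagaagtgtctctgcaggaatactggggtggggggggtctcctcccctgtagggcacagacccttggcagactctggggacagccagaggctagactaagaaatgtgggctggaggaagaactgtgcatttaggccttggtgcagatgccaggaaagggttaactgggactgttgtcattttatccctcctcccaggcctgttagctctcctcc
The GC content was 43.6% before the long form and 55.6% before the short form, neither stretch held a CpG, and the median over all 32851 promoter windows of 300 nt was 52.7% GC and 7 CpG. No base is in capitals because none of the 3 motifs searched on both strands, TATAAA (the TATA box), GGGCGG (the GC box) and ACAATG (a core of SOX sites), was found in either stretch or in the full windows. Of all windows 13.6%, 35.7% and 12.6% held them. Of the 10 windows listed for 8 of the genes, 1 held TATAAA, 6 held GGGCGG and 0 held ACAATG. A match or its absence in these windows is a description of the letters and says nothing of the factor.

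The collagen XI genes were far apart as well. Collagen XI joins the products of Col11a1 and Col11a2 with a chain made by Col2a1. Col11a1 (ENSMUSG00000027966, chromosome 3, 114030540 to 114220718) stood at 13.3 TPM in replicate 1 and 15.0 TPM in replicate 2 (14.2 ± 1.17), from 2113 and 2093 counts. Col11a2 (ENSMUSG00000024330, chromosome 17, 34039437 to 34066685) stood at 4.12 and 1.87 TPM (2.995 ± 1.59), from 468 and 220 counts. Col11a2 was lower than Col11a1 in both libraries, at 0.309 and 0.125 times its level, and the mean log2 ratio of -2.35 ± 0.925 passed the limit of 0.927. Col5a2, whose chain can join that of Col11a1 in mixed fibrils, stood at 19.2 ± 0.849, with 1.39 and 1.32 times the level of Col11a1. Relative to Col2a1, Col11a1 had 0.0705 and 0.0829 times and Col11a2 0.0218 and 0.0103 times the level.

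Col11a1 has mutually alternative exons in its variable region, one rich in acidic and another rich in basic residues. They are shown because the transcript that holds the second was listed with counts in replicate 1 and none in replicate 2. Both are the sixth exon of their transcript, printed 5′ to 3′ from the plus strand of GRCm38, with glutamate and aspartate codons in capitals in the first (chr3:114094517-114094633) and lysine and arginine codons in capitals in the second (chr3:114094861-114095013).
Col11a1 acidic exon: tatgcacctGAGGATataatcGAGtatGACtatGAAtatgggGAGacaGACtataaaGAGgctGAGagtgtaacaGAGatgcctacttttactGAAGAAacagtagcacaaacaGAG
Col11a1 basic exon: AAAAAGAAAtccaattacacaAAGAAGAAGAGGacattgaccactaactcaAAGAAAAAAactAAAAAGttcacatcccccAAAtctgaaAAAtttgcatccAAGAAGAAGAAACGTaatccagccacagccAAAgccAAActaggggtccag
The first has 13 acidic and 1 basic codons among 39, the second 1 acidic and 21 basic codons among 51. The transcript with the acidic exon stood at 8.36 TPM in replicate 1 and 10.3 TPM in replicate 2. The transcript with the basic exon, a model of only 15 exons against 67, stood at 1.01 TPM in replicate 1 (bounds 0.0139 to 1.85) and was listed at 0 in replicate 2 (upper bound 0.782). These bounds overlap, so no difference between the pools in this transcript or its exon can be read from them. By the deposited posterior means the transcript held 7.75% of the gene's TPM in replicate 1 and 1.99% in replicate 2. A further model of 2570 nt is annotated as a target of nonsense mediated decay and held 29.4% and 30.7% of the gene's TPM, from 273 and 266 counts.

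The short models of Col11a2 were assigned differently in the 2 pools. In replicate 1, a model of 836 nt with a retained intron took 34.7% of the gene's TPM from 29.7 counts, and in replicate 2 it was listed at 0. Another of 351 nt was listed at 0 in replicate 1 and took 13.6% in replicate 2, from fewer than 2 counts. Over coding transcripts alone Col11a2 stood at 2.66 and 1.62 TPM. The coding transcript with the most reads, of 6048 nt and 64 exons, held 62.4% and 78.5% of the gene's TPM (deposited bounds 2.13 to 2.70 and 1.09 to 1.57 TPM). By the deposited posterior means it held 53.9% and 53.0%, so the difference in its share between the pools was not seen there. The deposited lengths of the other 3 coding models of the gene in the tables differ from those of the annotation used here, so their exons are not described.

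The aggrecan gene stood far below the gene of its link protein. Acan (ENSMUSG00000030607, chromosome 7, 79053483 to 79115099), the aggrecan core protein gene, stood at 0.640 TPM in replicate 1 and 0.540 TPM in replicate 2 (0.590 ± 0.0707). It had 130 counts (exact 95% Poisson interval 109 to 154) and 92 counts (74.2 to 113), so it was detected but low, above 39.9% and 39.0% of protein-coding genes. Hapln1 (ENSMUSG00000021613, chromosome 13, 89539796 to 89611652), which encodes link protein, stood at 10.8 and 12.7 TPM (11.7 ± 1.37), from 1505 and 1474 counts. Hapln1 had 16.8 and 23.5 times the level of Acan. The related proteoglycan versican, which also binds hyaluronan and is known for its expression in early mesenchyme, was far higher. Vcan stood at 93.2 and 88.4 TPM. That is 146 and 164 times the level of Acan and 8.65 and 6.95 times that of Hapln1. Each of these log2 ratios passed the limit for the lower gene, which for Acan was 3.49.

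Both matrilin genes were near the lower end. Matn4 (ENSMUSG00000016995, chromosome 2, 164389393 to 164405160, minus strand) stood at 2.83 TPM in replicate 1 and 1.98 TPM in replicate 2 (2.41 ± 0.601), from 243 and 145 counts. Matn1 (ENSMUSG00000040533, chromosome 4, 130944385 to 130955475), the matrilin of maturing cartilage, stood at 1.23 and 1.46 TPM (1.35 ± 0.163), from 66 counts (exact 95% Poisson interval 51.0 to 84.0) and 65 counts (50.2 to 82.9). In TPM the interval of Matn1 in replicate 1 ran from 0.951 to 1.57, so it reached below 1 TPM. Matn4 was above Matn1 in both libraries, but the log2 ratio of 0.82 ± 0.539 did not pass the limit of 1.90. The other matrilins were of similar level, with Matn3 at 3.38 ± 0.834 and Matn2 at 2.13 ± 0.375.

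Much of Matn4 was not assigned to a coding transcript. A model of 4113 nt with a retained intron held 46.7% of the gene's TPM in replicate 1 and 54.0% in replicate 2. Over coding transcripts alone Matn4 stood at 1.51 and 0.920 TPM, which is below 1 TPM in replicate 2. The split among its coding models was not settled: the one of 2304 nt held 53.3% and 21.9%, and the one of 2056 nt held 0% and 24.0%, with deposited bounds of each that reached nearly to 0. The gene body overlaps Rbpjl on the other strand by 2020 nt, and Rbpjl was at 0.0300 and 0.120 TPM. Since the sources used here do not state whether counting used strand, reads of such pairs cannot be told apart. Col9a3 overlaps Tcfl5 by 234 nt (0.220 and 0.120 TPM) and Hapln1 the pseudogene Gm8546 by 1264 nt (0.310 and 0.410 TPM).

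**Figure D3:**
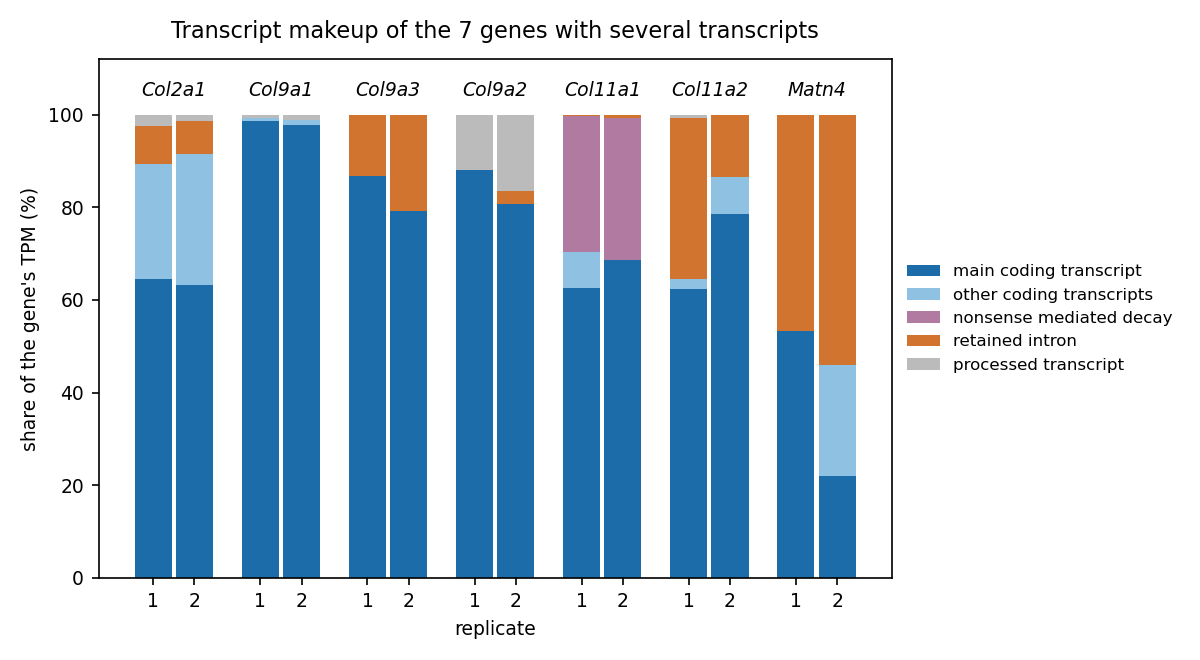
Share of each gene's TPM in percent by kind of annotated transcript, 1 bar per library, for the 7 genes with several transcripts in the tables; the main coding transcript is the coding one with the highest mean TPM. Col9a1 is nearly all 1 coding transcript, while retained-intron models hold 46.7% and 54.0% of Matn4.

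Across the 7 genes with several transcripts, the mean share not annotated as coding ran from 1.00% for Col9a1 to 50.2% for Matn4, with 9.66% for Col2a1, 15.6% for Col9a2, 17.1% for Col9a3 and 30.6% for Col11a1 between them. Col11a2 had no settled place in this order, at 35.4% in replicate 1 and 13.4% in replicate 2, and at 41.2% and 36.6% by the deposited posterior means. Among 8903 protein-coding genes with at least 1 TPM in both libraries and several transcripts, the median was 7.40% and the upper quartile 26.3%. In these shares, not annotated as coding means any transcript type other than protein-coding. For Col11a1 that is mostly the model annotated as a target of nonsense mediated decay. That model does have an annotated coding part, of 536 codons. Acan, Hapln1 and Matn1 had 1 transcript each in the tables.

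In order of level the genes ran Col2a1, Col9a1, Col9a3, Col9a2, Col11a1, Hapln1, Col11a2, Matn4, Matn1, Acan. Of the 9 steps between neighbours, 4 passed the limit set by the spread between pools. These were Col2a1 over Col9a1 (2.96 and 3.07-fold), Col9a1 over Col9a3 (1.74 and 1.60-fold), Col9a3 over Col9a2 (2.29 and 2.92-fold) and Hapln1 over Col11a2 (2.62 and 6.80-fold). Col9a2 and Col11a1 changed places between the libraries, and so did Col11a2 and Matn4. Col11a1 over Hapln1, Matn4 over Matn1 and Matn1 over Acan held in both libraries but did not pass the limit. Acan had more counts than Matn1 but a lower TPM, because its effective length was 7256 nt against 1902 nt. As there is 1 condition, no gene can be named for a pattern like that of a member.

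The pools were compared gene by gene with an exact two-sided binomial test on rounded counts, with libraries scaled by the TMM method of edgeR and Benjamini-Hochberg adjustment over all 16787 genes with at least 20 counts. All 10 genes were among those tested. A gene was called where the adjusted p was under 0.05 and the log2 ratio 1 or more in either direction, which 3.09% of genes met. None of the 10 genes was called, also with DESeq2 size factors, while 6 had an unadjusted p under 0.05, as had 39.4% of all genes. By adjusted p alone, 6 of the 10 passed, 2 higher and 4 lower in replicate 2, against 29.6% of genes. The test compares these 2 libraries and not conditions. It covers counting error only and treats reads amplified from 10 ng of RNA as independent, so its p-values are too small for a difference between pools. The share of all genes that passed is given beside them, but it is not matched for counts. Smaller ratios pass at higher counts, and that share includes genes from 20 counts up, while each of the 10 had at least 65 in each library. A share among genes of like counts was not computed, so no excess among the 10 can be read from it.

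For Col11a2 the CPM was 11.6 in replicate 1 and 6.78 in replicate 2, a log2 ratio of -0.77 (adjusted p of the exact test 7.73e-10). On the TPM scale the log2 ratio was -1.14, and over coding transcripts alone it was -0.72. Col9a2 went from 28.8 to 21.8 CPM, a log2 ratio of -0.40 (adjusted p of the exact test 1.09e-07). These ratios were larger in size than those of 96.7% and 95.9% of genes in the same abundance bin. Matn4 (-0.43) and Col9a1 (-0.07) were lower in replicate 2 too, the latter at an adjusted p of the exact test of 0.047 that rose to 0.0605 with DESeq2 size factors. Col11a1 (log2 ratio 0.30) and Hapln1 (0.29) had more counts in replicate 2, with ratios larger in size than those of 90.4% and 88.4% of genes in their bin.

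The 4 remaining genes did not pass: Col2a1 at 0.01, Col9a3 at -0.05, Matn1 at 0.29 and Acan at -0.18 on the log2 scale. The median over the 10 genes was -0.06 and that over all genes tested -0.01. The median size was 0.29 against 0.13 over all genes. Of the 8 cartilage regulators 6 had a log2 ratio below 0, from -0.82 for Nkx3-2 to -0.09 for Sox9, while Trps1 (0.13) and Barx2 (0.35) lay above, and their median was -0.15. Among the condensation markers Gdf5, a joint gene, was at -0.39 and Cdh2 at 0.29. Of the limb markers the hindlimb genes Pitx1 and Tbx4 were at -0.38 and -0.02, and the forelimb gene Tbx5 at 0.18. The part of these values in the differences of the matrix genes was not tested.

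**Figure D4:**
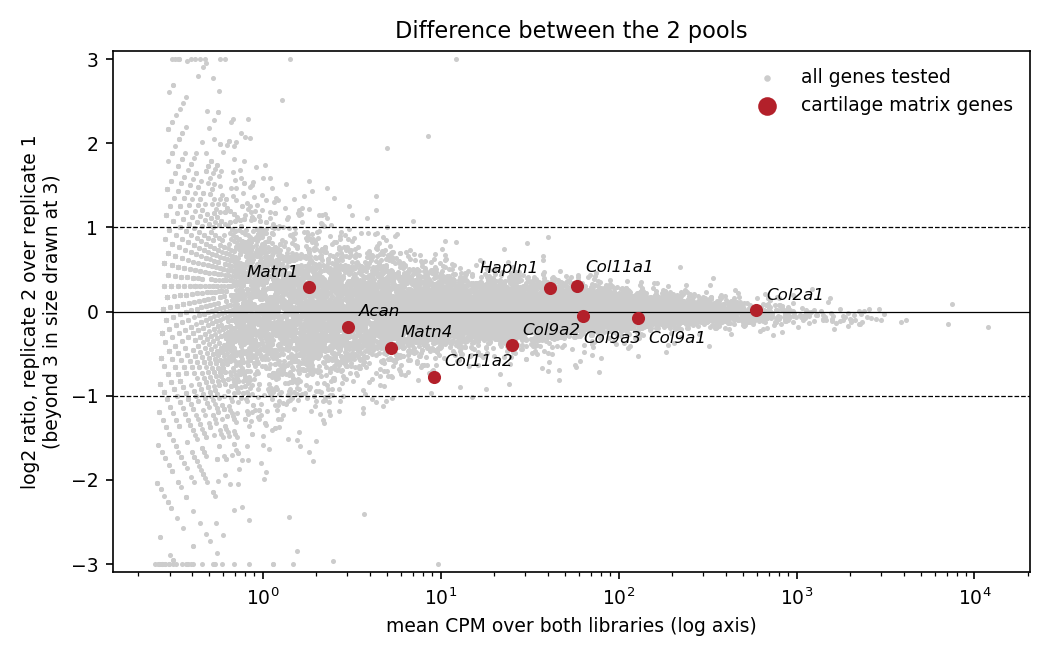
Log2 ratio of replicate 2 over replicate 1 against the mean CPM on a log axis, with all genes tested in grey and the cartilage matrix genes in red; dashed lines mark a log2 ratio of 1 in size, and ratios beyond 3 in size are drawn at 3. All 10 genes lie between the dashed lines, from Col11a2 at -0.77 to Col11a1 at 0.30.

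Of 20 other matrix genes of cartilage 13 were at 1 TPM or more in each library, a share near that of all protein-coding genes, and the median level was 2.49 TPM. Vcan (90.8 ± 3.45), biglycan Bgn (17.6 ± 0.332), chondromodulin Cnmd (13.1 ± 1.41) and decorin Dcn (9.22 ± 0.672) were highest. Comp, the cartilage oligomeric matrix protein, was at 0.355 ± 0.0212 and Ucma had 0 counts in both libraries. In this list 1 of 17 genes tested was called, Epyc, which was lower in replicate 2 (52 and 15 counts, log2 ratio -1.45, adjusted p of the exact test 0.00144).

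Of the 8 regulators 7 reached 1 TPM in both libraries and none was called. Sox9, Wwp2 (69.1 ± 5.66), Trps1 (51.7 ± 7.04) and Sox5 (36.6 ± 3.88) were highest, Sox6 (8.95 ± 1.59) and Foxc1 (6.85 ± 0.919) lower, and Nkx3-2 (1.42 ± 0.594) and Barx2 (0.890 ± 0.127) lowest. Of 6 genes of other fibrils 5 reached 1 TPM, led by Col3a1 (352 ± 15.5), Col1a2 (197 ± 3.20), Col1a1 (73.0 ± 3.66) and Col5a1 (21.8 ± 1.14). Only Col5a3 was called there, lower in replicate 2, from 28 and 2 counts.

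Collagen folding genes had a higher median level than the 10 matrix genes, and genes of chondroitin synthesis a lower one. Of 15 genes of collagen folding and crosslinking 14 reached 1 TPM in both libraries (median 32.1 TPM), with P4hb (507 ± 14.7), a subunit of prolyl hydroxylase, the collagen chaperone Serpinh1 (300.1 ± 5.87), P4ha1 (49.8 ± 6.51) and the procollagen protease Bmp1 (49.7 ± 2.35) highest. These also serve other collagens. Of 13 genes of chondroitin and sulfate handling 11 did (median 8.11 TPM), led by Ugdh (82.8 ± 2.69), Papss1 (80.5 ± 3.41), Chsy1 (19.6 ± 2.63) and Xylt2 (12.6 ± 0.311). Of 5 genes of proteases known to cut aggrecan or other matrix 4 did, among them Adamts1 (16.6 ± 1.49), Adamts4 (4.26 ± 0.0990), Adamts9 (2.73 ± 0.523) and Adamts5 (1.66 ± 0.403), and Mmp13 had 0 counts in both libraries. None of the genes tested in these 3 lists was called.

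**Figure D5:**
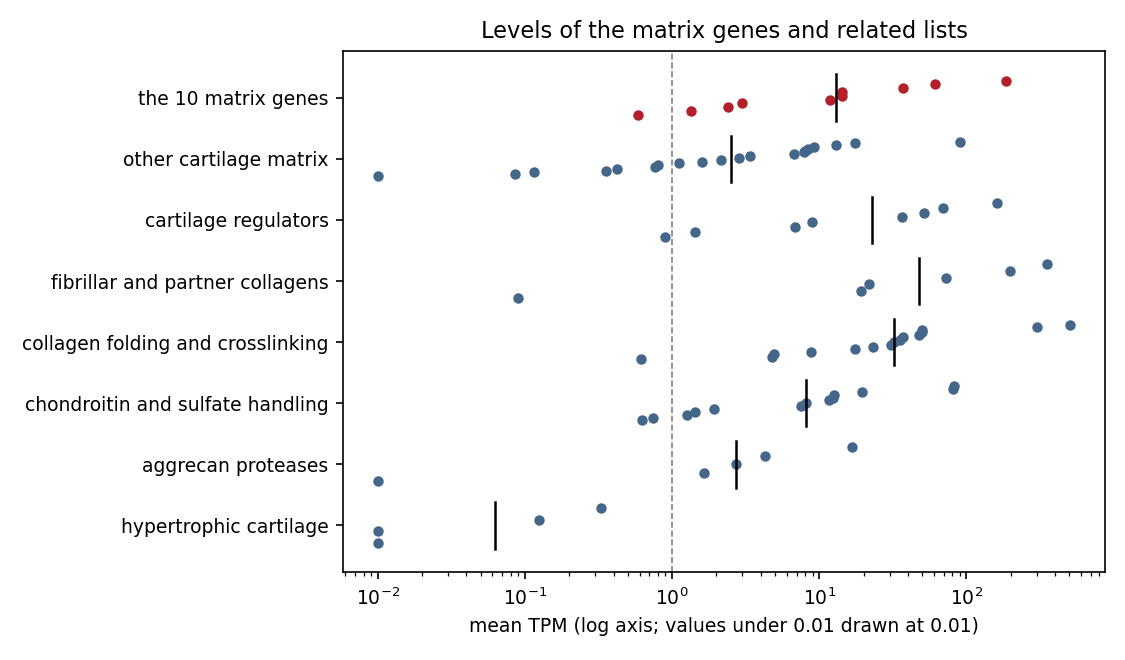
Mean TPM on a log axis of the 10 matrix genes (red) and of the genes of 7 related lists (blue), 1 point per gene, with the median of each as a black line and 1 TPM as a dashed line. The 10 matrix genes have a median of 13.0 TPM, between other cartilage matrix genes at 2.49 TPM and genes of collagen folding and crosslinking at 32.1 TPM.

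The name condensation stage is not in the labels, which give the day alone. Of its markers all 6 reached 1 TPM in both libraries: Sox9, Sox5, Sox6, the adhesion genes Cdh2 (56.2 ± 7.03) and Ncam1 (20.2 ± 0.842), and Gdf5 (16.1 ± 3.40). Of all protein-coding genes 56.3% did so, and a level of 1 TPM does not by itself mark condensations. Markers of hypertrophic cartilage were near 0, as 0 of 4 reached 1 TPM: Ihh had 14 and 25 counts, Col10a1 had 13 and 7, and Ibsp and Mmp13 had 0. Of the osteoblast markers Runx2 (4.42 ± 0.191) and Sp7 (1.58 ± 0.339) reached 1 TPM, while Bglap had 2 counts in each library and Dmp1 had 1 and 0.

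Col2a1 and other matrix genes are also made outside limb cartilage, in notochord, sclerotome, and ear and eye tissue. The 4 notochord markers summed to 1.98 and 2.16 TPM, with T at 0.910 and 1.12 TPM and Shh, which the limb itself makes, at 1.00 and 1.04 TPM, and with Foxa2 at 4 and 0 counts and Noto at 0 in both. The 4 markers of ear and retina summed to 0.350 and 0.520 TPM and the 4 of floor plate and spinal cord to 0.110 and 0.270 TPM. The 6 sclerotome and trunk markers all reached 1 TPM, with a sum of 90.4 and 85.0 TPM. They were led by Meox2 (51.4 ± 0.636), which limb muscle precursors also express, Tcf15 (17.5 ± 3.51) and Meox1 (8.905 ± 0.615). Pax1, at 5.87 ± 0.453, and Pax9, at 2.65 ± 0.467, were listed as sclerotome genes. Whether limb or trunk cells made these RNAs was not tested. The part of the tissues named here in the levels of the matrix genes was not tested either.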

How the data were processed

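Total RNA-seq tables of 2 libraries of 1 group were used, 1 gene and 1 transcript table each. Per the notes deposited with each library, the authors quantified transcriptome alignments to mm10 with GENCODE M4. Per the file headers, the column names are those of RSEM. The sources used here do not state the aligner, tool versions or use of strand. The authors deposited expected counts (estimated reads, not normalised), TPM, posterior mean TPM, bounds of TPM of unstated level, and each transcript's percent of its gene's TPM.

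GENCODE M21 (GRCm38, the build of mm10) gave names, transcript types and positions; 42462 of 43346 gene IDs matched, and 37 of the 42 transcripts of the 10 genes had the same length as in the tables. Spike-ins (97 entries) and 26248 number-only entries (6.29e-05% and 4.76e-05% of counts) entered neither library sizes nor tests. Counts were rounded and scaled by TMM (edgeR 4.0.16; effective sizes 40.4 M and 32.5 M). Genes with at least 20 counts were compared between the pools by an exact binomial test (scipy 1.17.1) with Benjamini-Hochberg adjustment, and log2 ratios used a prior count of 0.5. A quasi-likelihood contrast needs more than the 1 group of the labels and was not fitted. The biological coefficient of variation from edgeR was 7.65% over 16118 genes with 10 counts in both libraries. Limits on ratios between genes used log2(TPM + 0.1), genes of at least 0.1 TPM and 20 abundance bins. Poisson intervals and the binomial test cover counting error only. Alternatives were TPM over genes alone, posterior means, other detection cuts, DESeq2 1.42.0 size factors, no count filter and each library alone. The test was first run on simulated Poisson counts with known changes. Such counts hold counting error only, so that run cannot show how the test behaves with the spread between real pools.

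Named were the 10 genes, their transcripts with at least 5% of the gene's TPM in either library, the contrasted coding forms, and the 4 highest genes of each of 14 lists with 105 entries; other list genes, such as Comp, Ucma, Epyc, Foxc1, Col5a3, Col5a2, Matn2, Matn3, Mmp13, Gdf5, Pax9, Nkx3-2, Barx2, Sox6 and Tbx5, were added after their values were seen. The genes and lists were chosen with earlier results of these data known.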

Additional observations from a re-analysis of the deposited data

How the results depend on the processing

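With TPM scaled over genes alone, the summed level of the 10 genes was 387 TPM in place of 331, since spike-ins held 11.8% and 17.2% of TPM, and with coding transcripts alone, an alternative chosen after seeing the data, it was 298 TPM. Coding transcripts alone also moved the mean log2 ratios of Col9a2 to Col9a1 (-2.34), Col9a3 to Col9a1 (-0.996), Col9a1 to Col2a1 (-1.46), Col9a3 to Col2a1 (-2.46) and Col11a1 to Col2a1 (-4.09), none of which changed sign, and left 8 of 10 genes at 1 TPM in both libraries. Posterior mean TPM moved none of the summed level, the detected count, the 9 chain ratios or the 10 form shares by more than 1 SD. Within that wide SD the share of Col11a2 not annotated as coding went from 24.4% to 38.9%. Of the 10 single gene levels, posterior means moved 1 by more than its SD, that of Col9a3 (37.05 against 36.8 TPM). TPM over genes alone moved 7 of them, among these Col2a1 (216.5 against 185.1 TPM), and coding transcripts alone moved 4. At 0.5 TPM all 10 genes were detected and at 5 TPM 6. The calls between pools numbered 518 of 16787 genes, 515 with DESeq2 size factors, 711 without the count filter and 4975 by adjusted p alone; among the 10 genes they numbered 0, 0, 0 and 6, and Col9a1 was the gene lost by adjusted p with DESeq2 size factors (0.0605) or no count filter (0.0625), which left 5. Values of each library alone are those given above, and with 2 libraries neither can lie more than 1 SD from the mean. No paired analysis was possible because the labels give 1 group. Depth limits Acan, Matn1, Matn4 and Col11a2 most, which had from 65 to 468 counts in a library. It also limits transcripts that share most of their reads.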
